A study of Homo sapiens with 4 samples.

Results

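Cancer-testis antigens of 12 families were followed in melanoma cells on bead arrays. The members are the probes with a single gene symbol that starts with MAGEA, MAGEB, MAGEC, GAGE, CT45A, CTAG, SSX, XAGE, PAGE, BAGE or CSAG, or that is PRAME. The array held 131 such probes for 73 of its 20045 single-gene symbols. By prefix alone the rule also took in 6 CTAGE symbols, which are cutaneous T-cell lymphoma-associated antigens and no relatives of the CTAG antigens, and SSX2IP, which encodes a binding partner of SSX2. Without these, 120 probes for 66 symbols remained in the 12 families.

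RNA came from A2058, an established human melanoma line, in 4 cultures that cross 2 cell states with 2 oxygen conditions. Untreated parental cells and cancer stem-like cells, which had been selected out of the parental line with 100 uM of the DNA-alkylating drug carmustine over 6 months, were each kept in normoxia and in hypoxia. No source used here gives the oxygen level, the length of exposure or the number of clones behind the selected cells. Each group holds 1 array, so no difference has a replicate check, no test was made, and every value describes these 4 cultures. Levels below are normalized log2 signals and are always given in the order parental normoxia, parental hypoxia, stem-like normoxia, stem-like hypoxia. Detection means a detection p-value under 0.01 against the negative control beads, and higher or lower means a difference of 2-fold or more, a log2 fold of 1. Where a probe was detected on 1 array of a pair, the other was set to its lowest detected level, and the resulting bound is given with the words at least. A bound under 2-fold is not called and does not show that the difference is small.

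Cancer-testis antigens are genes normally read in male germ cells and in few other adult tissues, and read again in many tumours, melanoma among them. Most of the families lie on the X chromosome in recently duplicated clusters of near-identical copies, their promoters are kept silent in somatic cells by DNA methylation, and drugs that remove the methylation can switch them on. Peptides of these proteins are presented to T cells, which is why several families serve as vaccine and T cell targets. MAGE proteins partner ubiquitin ligases, SSX proteins repress transcription, and the GAGE, PAGE and XAGE proteins are related, largely disordered small proteins.

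The stretch of 250 bases before the transcription start is shown for symbols on which the comparison of the cell states turns, as RefSeq gives it for GRCh38.p14 and 5′ to 3′ on the gene's own strand. CT45A1 and MAGEC2 stood higher in the stem-like cells, GAGE12J, PAGE1 and PAGE5 lower, and MAGEC1 and PAGE2 were within 2-fold. CG dinucleotides, the sites of DNA methylation, are in capitals.
CT45A1 (chrX:135713389-135713638, plus strand): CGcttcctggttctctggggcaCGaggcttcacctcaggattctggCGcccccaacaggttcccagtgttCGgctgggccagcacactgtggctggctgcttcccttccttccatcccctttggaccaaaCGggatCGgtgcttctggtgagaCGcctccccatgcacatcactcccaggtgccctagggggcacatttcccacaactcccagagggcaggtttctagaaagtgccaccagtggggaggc
MAGEC2 (chrX:142205291-142205540, minus strand): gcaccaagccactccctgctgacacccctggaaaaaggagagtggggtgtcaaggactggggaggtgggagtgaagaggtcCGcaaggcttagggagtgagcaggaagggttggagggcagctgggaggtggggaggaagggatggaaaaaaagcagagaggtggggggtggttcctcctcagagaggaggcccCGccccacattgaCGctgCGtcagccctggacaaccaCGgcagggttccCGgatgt
MAGEC1 (chrX:141903644-141903893, plus strand): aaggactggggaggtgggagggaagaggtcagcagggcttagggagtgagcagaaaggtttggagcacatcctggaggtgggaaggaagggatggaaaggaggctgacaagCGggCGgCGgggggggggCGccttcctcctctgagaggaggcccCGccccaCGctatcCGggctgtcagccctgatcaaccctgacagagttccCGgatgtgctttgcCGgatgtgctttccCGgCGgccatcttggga
GAGE12J (chrX:49321787-49322036, plus strand): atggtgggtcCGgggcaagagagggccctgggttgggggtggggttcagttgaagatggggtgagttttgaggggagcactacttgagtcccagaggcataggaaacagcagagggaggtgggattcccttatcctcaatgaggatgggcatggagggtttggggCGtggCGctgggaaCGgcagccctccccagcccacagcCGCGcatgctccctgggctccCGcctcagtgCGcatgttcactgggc
PAGE1 (chrX:49695985-49696234, minus strand): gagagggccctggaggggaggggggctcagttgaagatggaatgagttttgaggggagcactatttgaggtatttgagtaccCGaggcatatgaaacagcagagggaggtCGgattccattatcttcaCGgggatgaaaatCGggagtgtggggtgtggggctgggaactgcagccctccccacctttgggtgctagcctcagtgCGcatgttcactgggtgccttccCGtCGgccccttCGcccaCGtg
PAGE5 (chrX:55220096-55220345, plus strand): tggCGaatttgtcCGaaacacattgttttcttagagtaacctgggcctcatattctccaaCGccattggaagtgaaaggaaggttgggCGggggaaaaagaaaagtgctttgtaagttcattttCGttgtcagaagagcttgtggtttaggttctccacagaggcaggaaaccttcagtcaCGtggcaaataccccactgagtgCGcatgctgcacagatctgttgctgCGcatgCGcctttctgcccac
PAGE2 (chrX:55088768-55089017, plus strand): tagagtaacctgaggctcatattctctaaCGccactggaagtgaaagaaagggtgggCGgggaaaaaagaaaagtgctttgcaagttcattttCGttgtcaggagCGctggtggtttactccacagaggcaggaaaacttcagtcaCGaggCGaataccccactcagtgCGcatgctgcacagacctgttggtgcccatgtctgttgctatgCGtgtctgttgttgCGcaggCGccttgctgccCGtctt

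MAGEC2 and MAGEC1, and PAGE5 and PAGE2, differed in their calls, while PAGE1 and GAGE12J were both lower. MAGEC2 and MAGEC1 were 78.6% identical over 215 aligned bases, PAGE5 and PAGE2 were 86.3% identical over 219, and PAGE1 and GAGE12J were 75.2% identical over 242. A RefSeq window was matched for 56 of the 73 symbols. Without the CTAGE symbols and SSX2IP, the median number of CG dinucleotides was 8 over 51 windows, against 10 over all 27305 genes with a window. It was 6.5 in the 4 windows of symbols that were higher in stem-like normoxia, 8 in the 14 of lower symbols, 11 in the 16 of symbols not called either way and 5.5 in the 16 of symbols detected on no array. Of the 14 lower windows 10 are near-identical GAGE copies, and the median over the other 4 was 9.

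Short motifs were searched on both strands. TGCGCATG stood in 18 of the 51 windows (35.3%), against 1.90% of all windows. The 18 comprise all 10 GAGE windows, PAGE1, PAGE2, PAGE2B, PAGE3, PAGE5, XAGE1B, XAGE3 and XAGE5. By the call in normoxia it stood in 12 of 14 windows of lower symbols, 10 of them GAGE copies, in 3 of 16 of symbols not called, in 0 of 4 of higher symbols and in 3 of 16 of undetected ones. CGGATGT stood in 15 windows (29.4%), against 1.23% of all. By the same call it stood in 3 of 4 windows of higher symbols, 2 of 14 of lower, 6 of 16 of those not called and 4 of 16 of undetected ones. Both motifs were picked after the windows had been read. CCGGAAG, a form of the ETS site, stood in 1 window (1.96%, against 8.78% of all). Other forms of the ETS site were not searched as such, so a lack of ETS sites is not shown. The GC-box GGGCGG stood in 21.6% (against 42.2%), the E-box CACGTG in 9.80% (against 6.46%) and the TATA motif TATAAA in 0 (against 11.2%).

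On the 4 arrays 16432 to 16945 of 47315 probes were detected, with median raw signals of 295 and 301 for the parental and 259 and 266 for the stem-like cells. The lowest detected level lay between 5.22 and 5.29. Of 8 pigment cell markers with a probe, 7 had a fold, and 5 were lower in stem-like cells in normoxia and 6 in hypoxia. The shares of lower genes over all were 5.89% and 6.01%. PMEL stood at 12.77, 12.94, 5.74 and 5.28 and SOX10 at 11.04, 11.12, 10.26 and 9.94. TYR, MLANA and TYRP1 were detected in parental cells alone, in normoxia at 11.26, 8.51 and 7.93. MITF stood at 9.58, 9.97, 7.34 and 6.88 and S100A1 at 7.76, 7.72, 7.55 and 7.61, while S100B was detected on no array. The 7 germ cell markers with a probe were detected on no array, with a summed raw signal of 764 and 779 in the parental and 780 and 755 in the stem-like cells. No keratinocyte marker was detected. The leukocyte markers PTPRC and CD3E were not detected either, while CD14 stood at 5.52, 4.99, 7.83 and 8.11. The fibroblast markers COL3A1 and PDGFRB were not detected. LUM stood at 9.40, 9.65, 7.75 and 7.39, DCN, detected in parental cells alone, at 6.16, 6.41, 4.43 and 4.55, and COL1A1, detected in stem-like normoxia alone, at 5.14, 4.86, 5.43 and 4.93. Of 3 endothelial markers, VWF was detected in parental hypoxia alone, at 5.54. The part of these marker shifts in the folds below was not tested. In RNA from whole cultures, fewer cells that carry a transcript and less transcript per cell cannot be told apart.

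Of the 73 symbols, 50 were detected on at least 1 array and 23 on none, and every one of the 12 families had a detected symbol. Between 41 and 46 symbols were detected per array. The cell states differed in both directions, family by family. In normoxia 49 symbols had a fold, of which 8 were higher in stem-like cells (16.3%, against 6.69% of the 10725 genes with a fold) and 18 were lower (36.7%, against 5.89%). In hypoxia 6 of 49 were higher (12.2%, against 7.28% of 10939 genes) and 18 lower (36.7%, against 6.01%). The median log2 fold of these symbols was -0.21 in normoxia and -0.19 in hypoxia, against -0.01 and -0.00 over all genes. Copies weigh on these counts, since 12 of the 18 lower symbols are GAGE copies. With GAGE and CT45A counted once each, 6 of 35 were higher and 7 lower in normoxia, and 4 and 7 of 35 in hypoxia. The log2 folds of probes of 1 symbol had an SD of 0.21 in normoxia and 0.23 in hypoxia among these symbols, which does not cover differences between arrays or cultures.

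**Figure D1:**
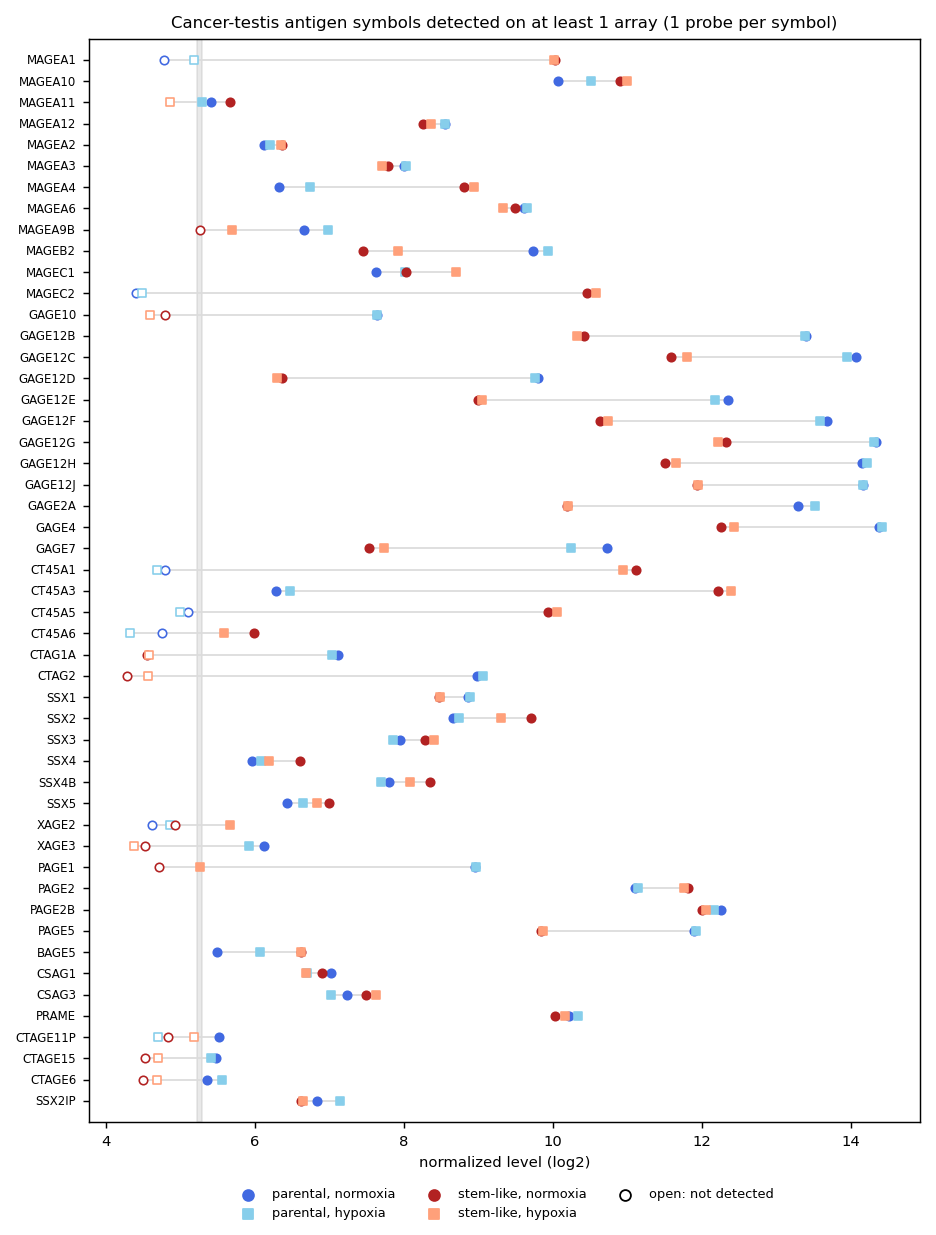
Normalized log2 level (x axis) of each of the 50 symbols detected on at least 1 array, 1 row per symbol, with blue for parental and red for stem-like cells, circles for normoxia, squares for hypoxia and open signs where the probe was not detected; the grey band marks the lowest detected levels. The blue and red signs of GAGE, CT45A, CTAG2, MAGEC2 and MAGEA1 lie far apart, while the 2 oxygen conditions of a cell state mostly lie close together.

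The sizes of the larger folds depend on the background correction: without it the log2 folds in normoxia were 4.82 for CT45A3, 4.13 for CT45A1, 3.50 for MAGEC2, 3.10 for MAGEA1, 3.02 for CT45A5, 1.65 for MAGEA4, -1.14 for GAGE10, -2.48 for GAGE12D, -2.15 for PAGE1 and -2.18 for CTAG2, each more than 1.5 times smaller as a fold than the value given below. CT45A1, CT45A5, MAGEC2, MAGEA1, GAGE10, PAGE1 and CTAG2 stayed bounds there in normoxia.

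CT45A was the family with the highest folds in stem-like cells. Its proteins bind protein phosphatase 4 and are tumour antigens. CT45A3 stood at 6.28, 6.47, 12.22 and 12.39, so that it was detected on all arrays and was 61.3-fold higher in stem-like cells in normoxia and 60.6-fold in hypoxia. CT45A1 stood at 4.80, 4.69, 11.12 and 10.94, with no detection in the parental cells and differences of at least 57.9-fold and 51.7-fold. A dimmer CT45A1 probe, at 4.48, 4.38, 6.34 and 6.97, gave at least 2.11-fold and 3.29-fold, and another was detected on no array. CT45A5 stood at 5.10, 5.00, 9.93 and 10.05, which is at least 25.4-fold and 27.9-fold higher. Its dimmest probe, at 4.34, 4.31, 5.39 and 5.10, was detected in stem-like normoxia alone, with a log2 bound of 0.13. By the probes that stand for them, these 3 symbols were high on both stem-like arrays and near or below the detection limit on both parental ones. CT45A6 stood at 4.75, 4.33, 5.99 and 5.58 and was detected on the stem-like arrays alone, with log2 bounds of 0.72 and 0.33 that do not reach the call. CT45A2 was detected on no array. The copies are near-identical, so a probe may read several of them, and the family is better read as a whole: 9 of its 11 probes were detected on a stem-like array.

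MAGEC2 and MAGEA1, type I MAGE genes, followed the same order of arrays. MAGEC2, whose protein binds the ubiquitin ligase TRIM28, stood at 4.41, 4.48, 10.45 and 10.57. It was not detected in parental cells. The stem-like levels exceeded that limit at least 36.4-fold in normoxia and 40.0-fold in hypoxia, and its other detected probe, at 4.97, 4.71, 8.24 and 8.25, had the same order of the cell states. MAGEA1, the gene of a T cell antigen found in melanoma, stood at 4.78, 5.19, 10.02 and 10.01, at least 27.1-fold higher in normoxia and 27.0-fold in hypoxia. A further MAGEA1 probe was detected on all 4 arrays, at 5.38, 5.36, 8.49 and 8.36, with log2 folds of 3.11 and 3.01. Thus the parental level of MAGEA1 is near the detection limit and not shown to be 0.

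MAGEA4, an antigen targeted by engineered T cells, was detected in all 4 cultures at 6.32, 6.74, 8.81 and 8.94. It was 5.64-fold higher in stem-like cells in normoxia and 4.62-fold in hypoxia, and its other detected probe stood at 4.39, 4.57, 6.76 and 6.22. Both stem-like arrays were above both parental arrays by either probe.

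The rest of the MAGEA family stayed within 2-fold or was dim. MAGEA3 stood at 8.00, 8.04, 7.79 and 7.71 and MAGEA6 at 9.62, 9.65, 9.49 and 9.33; their proteins bind TRIM28 and their promoter windows were 100% identical over 250 bases. MAGEA12, a close copy of both, stood at 8.56, 8.55, 8.26 and 8.37. These 3 were slightly lower on both stem-like arrays, by log2 folds of -0.13 to -0.33. MAGEA10 stood at 10.07, 10.51, 10.89 and 10.99, with log2 folds of 0.82 and 0.48. MAGEA2 stood at 6.12, 6.20, 6.36 and 6.35, and MAGEA11, known as a coregulator of the androgen receptor, at 5.41, 5.30, 5.67 and, undetected, 4.86. MAGEA9B was the lower member of the family: it stood at 6.66, 6.99, 5.27 and 5.69, at least 2.58-fold lower in normoxia and 2.46-fold lower in hypoxia. Its other detected probe stood at 6.27, 6.07, 5.37 and 5.13, with a log2 fold of -0.89 and a bound of -0.85, and the call was lost without background correction, in the authors' table and with an offset of 50. MAGEA2B, MAGEA5P, MAGEA8 and MAGEA9 were detected on no array, and MAGEA9 and MAGEA9B are copies with promoter windows that were 100% identical over 250 bases.

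MAGEB2 was the one MAGEB symbol detected, and it was lower in stem-like cells. It stood at 9.73, 9.93, 7.45 and 7.92, 4.86-fold lower in normoxia and 4.01-fold lower in hypoxia. Its other probe, at 4.41, 4.50, 4.48 and 4.40, was detected on no array, so the call rests on 1 probe. MAGEB1, MAGEB3, MAGEB4, MAGEB6, MAGEB10, MAGEB16 and MAGEB18 were detected on no array. MAGEC1, the neighbour of MAGEC2, stood at 7.63, 8.02, 8.03 and 8.70, with cell state log2 folds of 0.40 and 0.68, and MAGEC3 was not detected. MAGEC1 was thus present in the parental cells, where MAGEC2 was not detected.

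The GAGE family was lower in stem-like cells at every one of its 13 probes, and several of them were bright. The highest raw GAGE signal reached 94.0% of the brightest signal of the array in parental normoxia and 99.1% in parental hypoxia, close to the top of the scale; its part in the folds was not tested. GAGE12J stood at 14.16, 14.17, 11.94 and 11.95, which is 4.66-fold lower in normoxia and 4.65-fold lower in hypoxia. GAGE4, a symbol that RefSeq now merges with GAGE1, stood at 14.37, 14.42, 12.26 and 12.43, and GAGE12G at 14.34, 14.32, 12.32 and 12.21. GAGE12H stood at 14.15, 14.21, 11.50 and 11.66, and GAGE12C at 14.06, 13.95, 11.58 and 11.80. In these bright probes the stem-like arrays lay about 2 to 3 log2 units below the parental ones, and transcript remained in both.

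Dimmer GAGE probes gave larger folds in normoxia. GAGE12D stood at 9.80, 9.76, 6.37 and 6.29, 10.8-fold lower in normoxia and 11.1-fold lower in hypoxia. GAGE12E stood at 12.36, 12.18, 9.00 and 9.05, and GAGE7, which RefSeq now merges with GAGE12F, at 10.72, 10.24, 7.53 and 7.73. The 6 probes with a level of at least 14 in parental normoxia had log2 folds of -1.89 to -2.65 in normoxia, and the other 6 detected on all arrays had -2.98 to -3.43. In hypoxia this parting was not kept, since the dimmer GAGE7 had -2.52 and the brighter GAGE12H -2.56. GAGE12B stood at 13.39, 13.38, 10.41 and 10.33, GAGE12F at 13.68, 13.58, 10.63 and 10.73 and GAGE2A at 13.29, 13.51, 10.18 and 10.21. GAGE10, the copy whose promoter window differs most, stood at 7.64, 7.63, 4.80 and 4.59. It was not detected in stem-like cells and was at least 5.09-fold lower in normoxia and 5.33-fold lower in hypoxia. Over the 12 probes detected on all arrays the median log2 fold was -2.81 in normoxia and -2.54 in hypoxia. The 9 GAGE promoter windows other than that of GAGE10 were 100% identical over their aligned parts, and the copies cannot be told apart by their probes with certainty.

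**Figure D2:**
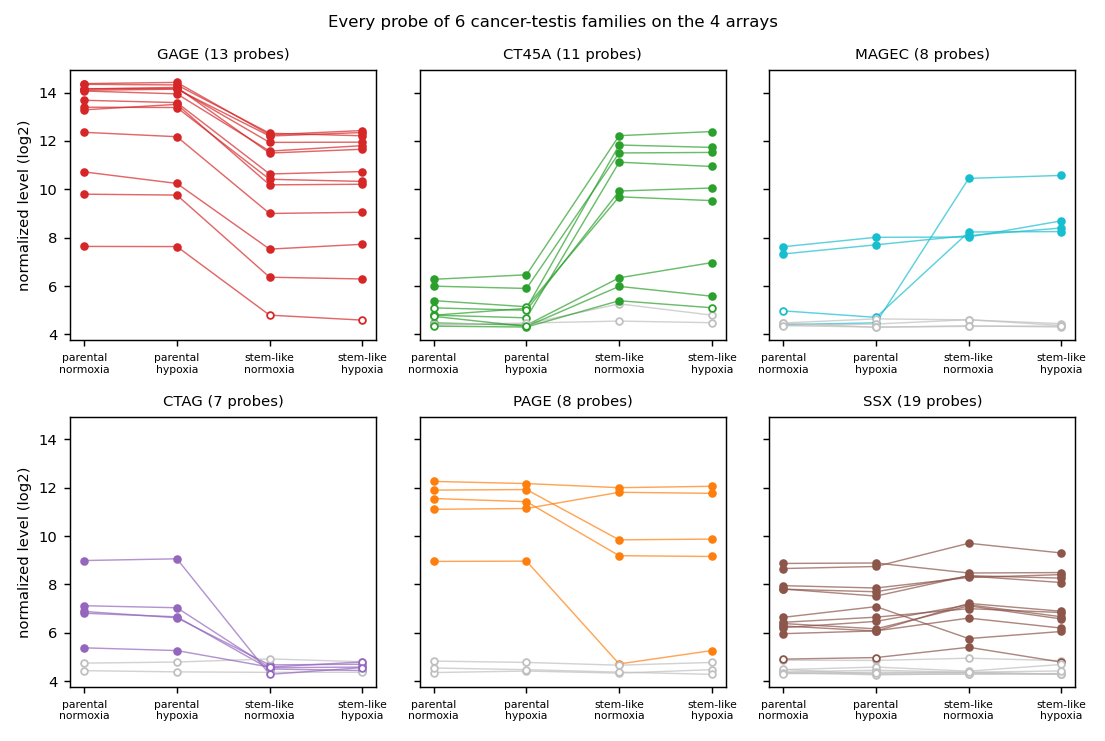
Normalized log2 level (y axis) of every probe of 6 families on the 4 arrays (x axis), 1 line per probe, with filled points where the probe was detected and grey lines for probes detected on no array. All 13 GAGE probes and the detected CTAG probes lie lower on the stem-like than on the parental arrays, the detected CT45A probes lie higher, PAGE and MAGEC probes part, and the brighter SSX probes stay close to level.

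The related PAGE family parted. PAGE1 stood at 8.95, 8.96, 4.71 and 5.27, at least 12.6-fold lower in stem-like cells in normoxia, where it was not detected, and 13.0-fold lower in hypoxia, where it was detected at the detection limit, so that this fold too rests on a signal close to background. PAGE5 stood at 11.90, 11.92, 9.84 and 9.87, 4.16-fold and 4.13-fold lower, and its other detected probe, at 11.55, 11.42, 9.19 and 9.15, had log2 folds of -2.36 and -2.27. In contrast PAGE2 stood at 11.10, 11.14, 11.81 and 11.77, slightly higher in the stem-like cells with log2 folds of 0.70 and 0.63. PAGE2B stood at 12.26, 12.17, 12.00 and 12.06, with log2 folds of -0.26 and -0.11. PAGE2 and PAGE5 thus went opposite ways on all 4 arrays, although PAGE2 stayed within 2-fold. PAGE3 and PAGE4 were detected on no array. Of the XAGE family, XAGE3 stood at 6.12, 5.92, 4.53 and 4.38 and was detected in parental cells alone, with log2 bounds of -0.83 and -0.71, and XAGE2 stood at 4.62, 4.86, 4.92 and 5.67, with detection in stem-like hypoxia alone. XAGE1B and XAGE5 were detected on no array.

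CTAG antigens were detected in parental cells and not in stem-like cells. CTAG2, the gene of LAGE-1, stood at 8.99, 9.06, 4.28 and 4.56, at least 13.0-fold lower in normoxia and 14.3-fold lower in hypoxia. CTAG1A, a copy of the gene of NY-ESO-1, stood at 7.12, 7.04, 4.56 and 4.58, at least 3.55-fold and 3.52-fold lower, and its other 2 probes had the same arrays detected. Without background correction its log2 bounds were -0.81 and -0.78, under the call. CTAG1B, its near-identical copy, was detected on no array by its own probes.

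SSX, the family whose SSX1 and SSX2 are fused to SS18 in synovial sarcoma, was detected in all 4 cultures. SSX1 stood at 8.87, 8.89, 8.47 and 8.49, slightly lower in stem-like cells. SSX2 stood at 8.66, 8.74, 9.70 and 9.30, 2.06-fold higher in normoxia and 1.47-fold in hypoxia, so it is called in normoxia by a narrow margin, and its other 4 probes had log2 folds of 0.55 to 0.95 there, under the call. SSX3 stood at 7.95, 7.85, 8.29 and 8.41, and SSX5 at 6.43, 6.65, 7.00 and 6.84. SSX4 stood at 5.96, 6.08, 6.61 and 6.19, and its copy SSX4B at 7.80, 7.70, 8.35 and 8.08. Apart from SSX2 in normoxia, all these SSX symbols were within 2-fold between the cell states. SSX7 was detected on no array.

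PRAME, a substrate receptor of a cullin ubiquitin ligase that represses retinoic acid receptor signalling, was within 2-fold. It stood at 10.21, 10.34, 10.03 and 10.17, with cell state log2 folds of -0.18 and -0.17. CSAG1 stood at 7.02, 6.71, 6.90 and 6.69, and CSAG3 at 7.24, 7.03, 7.49 and 7.63; these chondrosarcoma-associated genes lie among the MAGEA genes. BAGE5 stood at 5.49, 6.07, 6.63 and 6.62, 2.20-fold higher in stem-like cells in normoxia and 1.47-fold in hypoxia, where the call is not reached; without background correction its log2 fold in normoxia was 0.47. BAGE2 was not detected. Among the symbols taken in by prefix, SSX2IP stood at 6.84, 7.14, 6.62 and 6.65. CTAGE11P stood at 5.52, 4.70, 4.84 and 5.18, CTAGE15 at 5.47, 5.41, 4.52 and 4.70, and CTAGE6 at 5.36, 5.56, 4.50 and 4.68, all of them at the detection limit. CTAGE1, CTAGE9 and CTAGE10P were detected on no array.

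**Figure D3:**
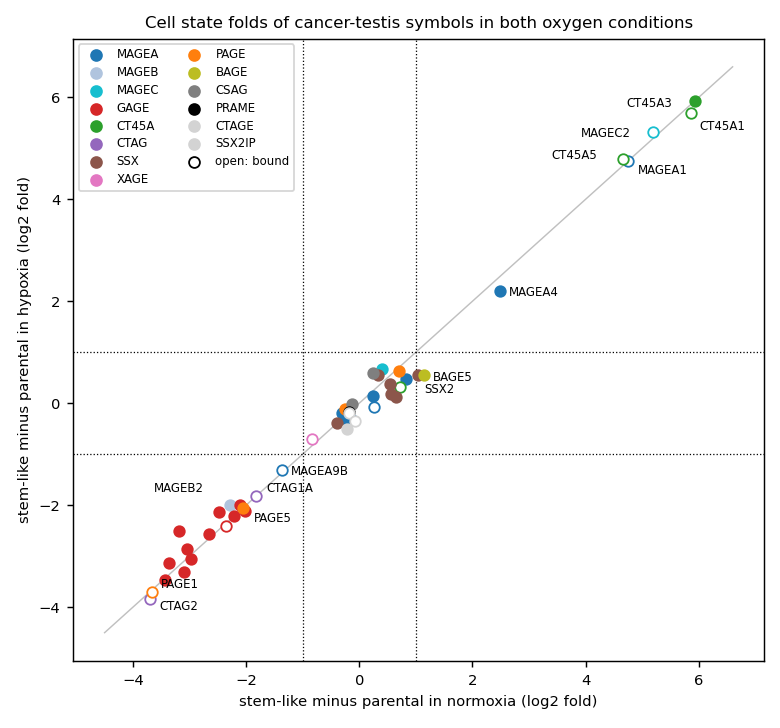
Log2 fold of stem-like over parental cells in normoxia (x axis) and hypoxia (y axis), 1 point per symbol with a fold in both, coloured by family, open where a fold is a bound; dotted lines mark 2-fold and the grey line equality. CT45A, MAGEC2, MAGEA1 and MAGEA4 lie at the upper right, and GAGE, CTAG, PAGE1, PAGE5, MAGEB2 and MAGEA9B at the lower left.

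The folds in normoxia and in hypoxia come from separate pairs of arrays, and no symbol past 2-fold in one had the opposite sign in the other. All 24 symbols called in hypoxia were also called in normoxia, where SSX2 and BAGE5 were called besides. Both pairs set the same selected cells against the same parental line. The overlap over all genes was not counted, so this overlap is not shown to be particular to these symbols. Over the 48 probes detected on all arrays, the difference between the 2 log2 folds ran from -0.76 to 0.68 with an SD of 0.27, against 0.32 over all 11567 such probes.

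Hypoxia itself moved none of these symbols past 2-fold. In parental cells 0 of 44 were higher or lower in hypoxia, against 0.384% of 10422 genes higher and 0.0768% lower. In stem-like cells 0 of 42 were, against 0.497% of 10464 genes higher and 0.191% lower. At those background shares 0 of about 40 is no result about these families. Over the 48 probes, hypoxia log2 folds ran from -0.48 to 0.58 in parental cells and from -0.54 to 0.67 in stem-like cells. Their SD was 0.22 and 0.23, against 0.26 and 0.28 over all such probes. BAGE5 had the highest in parental cells, and a MAGEC1 probe the highest in stem-like cells. All of these are within 2-fold. In the parental and then the stem-like state, MAGEC1 had 0.39 and 0.67 by the probe described above and 0.38 and 0.31 by the other, and MAGEB2 had 0.20 and 0.47.

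**Figure D4:**
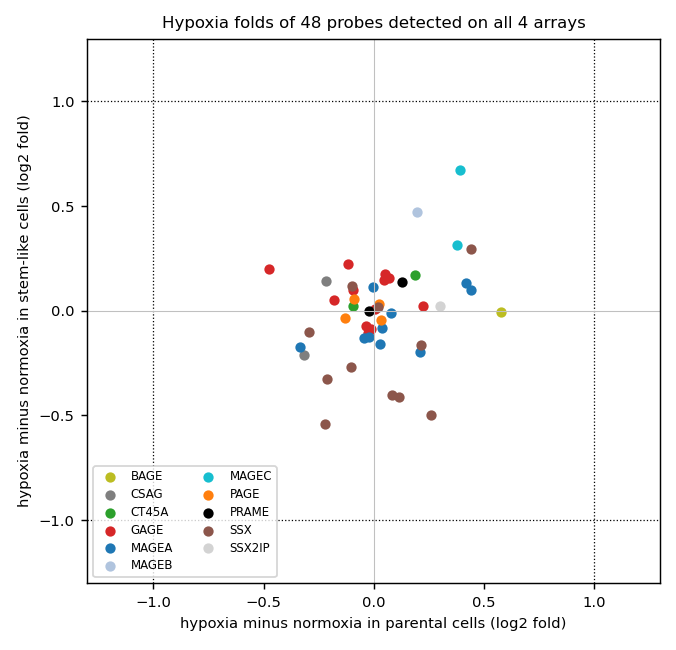
Log2 fold of hypoxia over normoxia in parental (x axis) and stem-like cells (y axis) for the 48 probes detected on all 4 arrays, coloured by family; dotted lines mark 2-fold. All points lie inside the 2-fold lines, between -0.54 and 0.67.

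By RefSeq, 61 of the 71 symbols with an entry lie on the X chromosome, in 12 blocks when members whose starts are under 1 Mb apart are joined. No block held both a higher and a lower symbol in normoxia. Called symbols stood beside symbols within 2-fold in several blocks, in some cases within 1 family. The block from SSX5 to PAGE4 holds 17 symbols, of which 16 had a fold and 11 were lower in normoxia, all of them GAGE copies and PAGE1, while the SSX symbols in it stayed within 2-fold. The block from MAGEA4 to MAGEA1 holds 11, of which 9 had a fold; its outermost members MAGEA4 and MAGEA1 were higher, and the 7 others with a fold were within 2-fold. In the CT45A block 3 of 4 symbols with a fold were higher, and in the CTAG block 2 of 2 were lower. Over all genes with a fold in normoxia, 6.69% were higher and 5.89% lower, the shares for all counts in this paragraph. PAGE5 was lower beside PAGE2 and PAGE2B within 2-fold, and MAGEC2 higher beside MAGEC1 within 2-fold.

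Of the 51 other genes with a probe that lie between members of a block, 26 had a fold in normoxia and 28 in hypoxia. Of these 0 were past 2-fold in either, with median log2 folds of 0.13 and -0.07. Over all genes with a fold, 6.69% were higher and 5.89% lower in normoxia, and 7.28% and 6.01% in hypoxia. All counts in this paragraph stand against those shares. In the block from SSX5 to PAGE4, 19 neighbours had a fold and 0 were past 2-fold. Outside the blocks the picture differed. Of 183 further genes with a probe that start within 1 Mb of a member, 94 had a fold in normoxia, with 13 higher and 5 lower, and 101 in hypoxia, with 14 higher and 4 lower. They include other cancer-testis genes described below, the higher SPANX copies, SAGE1 and PASD1 and the lower CT55. This flanking set was chosen after values were seen. Of 370 other genes on the X chromosome with a fold in normoxia, 23 were higher, 33 were lower and the median was -0.08.

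**Figure D5:**
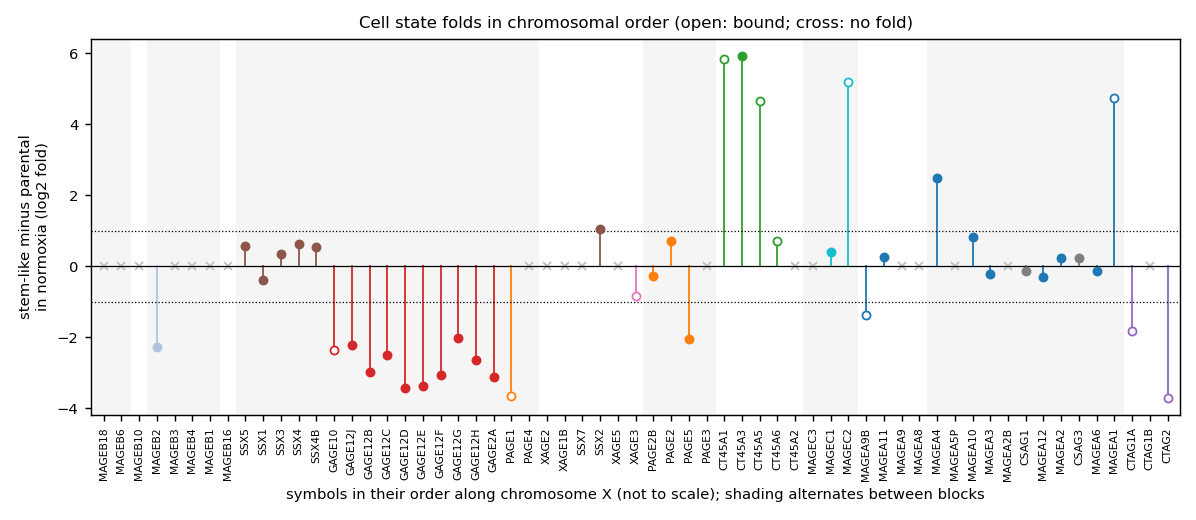
Log2 fold of stem-like over parental cells in normoxia (y axis) for the symbols on the X chromosome in their order along it (x axis, not to scale), with shading that alternates between blocks, open points for bounds and crosses for symbols without a fold; dotted lines mark 2-fold. GAGE and PAGE1 stand below the line beside SSX symbols near 0, and CT45A, MAGEC2, MAGEA4 and MAGEA1 above it.

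Cancer-testis genes outside these families also went both ways. Of 72 with a probe, 32 had a fold in normoxia, with 8 higher and 5 lower, and 32 in hypoxia, with 9 higher and 5 lower. The background shares over all genes were 6.69% higher and 5.89% lower in normoxia, and 7.28% and 6.01% in hypoxia. SPANXA2, which encodes a sperm nuclear protein, stood at 4.62, 4.64, 8.93 and 8.82, a difference of at least 12.7-fold in normoxia. SPANXB1 stood at 4.60, 5.57, 8.54 and 8.60, and SPANXC at 4.44, 4.41, 8.32 and 8.45. SPANXA1 stood at 4.70, 4.45, 8.29 and 8.92. SPANX copies were thus high on the stem-like arrays, as CT45A and MAGEC2 were. In contrast CT55 stood at 8.56, 8.55, 5.19 and 4.87, at least 9.61-fold lower, and SPANXN3 stood at 9.62, 9.64, 7.19 and 7.01. ROPN1B stood at 10.11, 9.85, 8.21 and 7.47, and ROPN1 at 10.38, 10.38, 8.67 and 7.65; both encode proteins of the sperm tail. SPANXN3, ROPN1 and ROPN1B were chosen after their values were seen, as was MAGED1 below. Of the type II MAGE genes, which are read in most tissues, 10 had a fold and 0 were past 2-fold in either oxygen condition. At those background shares, 0 of 10 is no result about them. MAGED1 stood at 11.83, 11.89, 11.86 and 11.95.

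For genes that can act on cancer-testis promoters 40 probes were read. In normoxia 34 had a fold, with 0 higher and 2 lower, against 6.69% and 5.89% of all genes. In hypoxia 32 had a fold, with 0 higher and 2 lower, against 7.28% and 6.01%. At those shares the counts are no result about these genes. An alias match took in DPEP3, which is no such gene, in place of MBD3. DPEP3 was detected on no array, so it is not among the folds, and MBD3 was not read. DNMT1, the maintenance DNA methyltransferase, stood at 12.02, 12.03, 11.79 and 11.78. DNMT3B, a de novo methyltransferase, stood at 6.16, 6.20, 5.35 and 5.75, with log2 folds of -0.81 and -0.46. DNMT3A was detected in parental normoxia alone, at 5.48, and CTCFL, a germ cell paralogue of CTCF, on no array. The 2 lower ones were ETS1, a transcription factor that can act on MAGEA1, at 10.99, 11.11, 9.54 and 9.37, and ETS2 at 6.40, 6.80, 4.83 and 5.09. Of the binding partners of these antigens, 13 had a fold and 0 were past 2-fold, too few for a result at those shares. TRIM28 stood at 8.36, 8.40, 8.70 and 8.80.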

How the data were processed

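Per the labels' protocols, total RNA of 4 A2058 cultures, 1 per group, was labelled with biotin for Illumina arrays. The deposited table gives each probe's mean bead intensity on a linear scale and a detection p-value, per the file headers. A further deposited table holds intensity values with equal quantiles on all arrays. No source used here gives the scanner software or how the authors normalized.

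In the first table the identifiers had slipped against the values (47323 lines of values, 47315 identifiers, 98.0% off their line), so lines were given back their probes by an ordered match to the second table. As a check that does not use the second table, Spearman's rho between probe pairs of 6691 genes went from 0.022 to 0.482. The realignment was also run on simulated data, but there lines were matched to exact copies of themselves. That is an easier task than the real match and says little about it. Signals were corrected with limma 3.58.1 in R 4.3.3 (normexp, offset 16), quantile normalized and put on a log2 scale. The platform's annotation gave 1 symbol to 30112 probes, several to 8 and none to 17195. A symbol is represented by its probe of highest mean level. All members detected on an array are named; of the other lists, up to 4 past 2-fold per comparison, with TRIM28, DNMT1, DNMT3A, DNMT3B and CTCFL whatever their values. Members and lists were chosen with earlier results of these data known. Alternatives changed the background correction, the scaling, the detection threshold and the counting of copies. The arrays' number, 1 per group, limits the precision. Folds of dim probes shrink toward 1 because of the offset.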

Additional observations from a re-analysis of the deposited data

Results flagged for a closer look

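One SSX2 probe went opposite ways in hypoxia in the 2 cell states. Its hypoxia log2 fold was 0.26 in parental cells and -0.50 in stem-like cells, from levels of 6.21, 6.47, 7.16 and 6.66. With 1 array per group the difference was not tested. Of the other SSX2 probes, the one that stands for the symbol had 0.08 and -0.40, and 3 more had -0.21 and -0.32, -0.22 and -0.54, and -0.29 and -0.10. The lower value in stem-like hypoxia is thus shared by all 5 probes, and the higher value in parental hypoxia is not.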

How the results depend on the processing

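No paired analysis was possible because each group holds 1 array and the labels carry no replicate numbers. With every probe counted singly, the probes higher in stem-like cells numbered 15 in normoxia and 12 in hypoxia. The lower probes were 13 of GAGE, 4 of CTAG, 3 of PAGE and 1 each of MAGEA and MAGEB in both conditions. In hypoxia 1 SSX probe was lower as well. Many of these probes read near-identical copies, and no share over all probes is given, so these probe counts are no result about the families. With GAGE and CT45A counted once each, the lower symbols numbered 7 in normoxia and 7 in hypoxia. That counting of copies was chosen after seeing the data. Every one of the 26 calls in normoxia and 24 in hypoxia kept its sign without background correction, with median scaling, with the authors' table, with a detection p-value under 0.05, with no detection filter and with an offset of 50. All of these settings reuse the same 4 arrays, so a kept sign is no replicate check. The authors' table gave nearly the values found without background correction. The calls that fell under 2-fold were BAGE5 and SSX2 in normoxia and CTAG1A and MAGEA9B in both, without background correction and in the authors' table; BAGE5 and SSX2 in normoxia and MAGEA9B in both with an offset of 50; and SSX2 with median scaling. Sizes were less stable: of 98 cell state folds, 34 moved without background correction, 35 in the authors' table and 27 with an offset of 50, and the bound of CT45A1 in normoxia went from a log2 of 5.86 to 4.13, 4.14 and 4.96. No symbol was past 2-fold for hypoxia in any of these settings.

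Over all genes, median scaling moved the median cell state fold to -0.21 in normoxia and -0.12 in hypoxia, and the share of calls that were higher from 53.2% to 36.2% and from 54.8% to 44.7%. In normoxia it gave 963 lower genes in place of 632. Leaving out the background correction gave 344 higher and 252 lower genes in normoxia in place of 718 and 632, and 371 and 284 in hypoxia in place of 796 and 657; an offset of 50 gave 404 and 418 lower genes. These counts set the background shares. Signals under the detection threshold give bounds, and folds from signals near the lowest detected levels, 5.22 to 5.29, rest on little signal over background.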

Other observations

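Some probes of 1 symbol disagreed, besides those of CT45A1, CT45A5, MAGEA9B, MAGEB2 and SSX2 given above. MAGEA2, MAGEA3, MAGEA10, SSX1, SSX4, SSX4B, SSX5, PAGE5 and CSAG3 also had a probe detected on no array. For each of them the probe that stands for the symbol was detected on all 4. The other detected probe of SSX1 stood at 6.64, 7.08, 5.76 and 6.05, with cell state log2 folds of -0.88 in normoxia and -1.03 in hypoxia, against -0.40 in both for the probe that stands for SSX1. The other CTAG2 probe stood at 5.38, 5.26, 4.58 and 4.80, so that it was near the detection limit in the parental cells and gave bounds of -0.09 and -0.05. A further CT45A3 probe, at 4.79, 5.08, 11.83 and 11.73, was not detected in parental cells, where the probe that stands for CT45A3 was. MAGEH1, a type II MAGE gene, stood at 5.58, 5.39, 6.58 and 6.35, just under 2-fold in both oxygen conditions.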
